A study of Mus musculus with 2 samples.

Results

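The genes described here are the 10 that carry the myostatin and activin signal that limits muscle mass: the ligand genes Mstn, Gdf11 and Inhba, the receptor genes Acvr2a, Acvr2b and Acvr1b, the antagonist genes Fst and Fstl3, and the effector genes Smad2 and Smad3. They were chosen by symbol, each symbol matched 1 gene identifier, and they are 10 of the 55536 annotated genes in the deposited gene tables. Total RNA was sequenced from gastrocnemius, the calf muscle, of male B6CASTF1/J mice, hybrids of the B6 and CAST strains, at an age of 2 months and without any treatment named in the labels. There was 1 group of 2 libraries, replicate 1 and replicate 2, with 300 ng of RNA put into each and ERCC RNA spiked in. The labels number separate tissue samples but give both libraries the same donor entry, so a difference between them may be technical. The expected counts summed to 42724520 reads on genes for replicate 1 and to 42280091 for replicate 2. As a check of the tissue, the fast-fibre genes Myh4 and Tnnt3 stood at 8431 TPM or more in both libraries.

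Myostatin (Mstn), which muscle fibres secrete, and its close relative GDF11 (Gdf11) are made as precursors, cut at a pair of basic residues, and held latent by their own propeptides. Like activin A, the dimer of the Inhba product, they bind the type II receptors ACVR2A and ACVR2B, which then switch on a type I receptor, ACVR1B or TGFBR1, and these phosphorylate SMAD2 and SMAD3. Follistatin (Fst) and the related FSTL3 wrap around the ligands and block the receptors' access, and mice that lack myostatin or that carry a follistatin transgene in muscle have strongly enlarged muscles.

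Close relatives can share reads, and the annotated transcripts were compared for this. The longest exact run that transcripts of Mstn and Gdf11 share was 12 bases. Across all pairs of the 10 genes the longest was 23 bases, between Smad2 and Smad3, and that of Acvr2a and Acvr2b was 14 bases. In the first tables the effective length of the Gdf11 transcript was 99 bases below its length. The posterior SD of the count, a score deposited by the authors for the uncertainty of read assignment, was 0 for each of the 10 genes in both libraries, as it was for 79.8% of the genes tested in replicate 1 and 79.9% in replicate 2.

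The promoters of Mstn and Gdf11 are shown beside each other because these were the members that stood farthest apart between the libraries (values below). RefSeq promoters (GRCm38.p6) were found for 8 of the 10 genes, all but Fst and Smad2. The 250 bases before the start are printed, Mstn at chr1:53061390-53061639 on the plus strand and Gdf11 at chr10:128891719-128891968 on the minus strand. Capitals mark matches, on either strand, to the E-box CANNTG, the motif bound by myogenic factors of the MyoD family, and to the TATA box TATAAA, which overlapped no E-box here.
Mstn: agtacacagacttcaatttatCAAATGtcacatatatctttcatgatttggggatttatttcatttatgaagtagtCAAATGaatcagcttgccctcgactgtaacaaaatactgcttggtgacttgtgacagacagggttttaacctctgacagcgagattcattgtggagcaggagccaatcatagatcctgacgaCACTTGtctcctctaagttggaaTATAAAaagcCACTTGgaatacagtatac
Gdf11: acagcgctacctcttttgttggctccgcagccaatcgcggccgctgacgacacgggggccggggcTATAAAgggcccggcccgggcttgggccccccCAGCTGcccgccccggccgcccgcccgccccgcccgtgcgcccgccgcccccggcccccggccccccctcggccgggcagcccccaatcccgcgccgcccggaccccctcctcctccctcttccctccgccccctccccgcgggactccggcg
Mstn had 4 E-box matches, where 12.2% of 32851 promoters of this length had 3 or more and 66.2% had at least 1. Its TATA box began 29 bases before the start, and the nearest E-box followed at 19 to 14 bases before the start. Gdf11 had 1 E-box match and a TATA box that began 185 bases before the start, and 12.4% of all promoters held that motif somewhere. The promoters also differed in composition, with 38.4% GC and 3 CpG for Mstn against 81.2% GC and 33 CpG for Gdf11, around a median of 52.4% GC over all promoters. Of the SMAD motif CAGACA, in 17.1% of all promoters, 1 match lay in each of the Mstn and Fstl3 promoters and none in the other 6. Fstl3 also had 3 E-box matches and 1 TATA box, Inhba had 1 TATA box, and Acvr1b had 1 E-box match. Acvr2a, Acvr2b and Smad3 had no match to either of these motifs. Inhba resembled Mstn in composition, with 43.2% GC, while the other 5 genes with a promoter, Acvr2a, Acvr2b, Acvr1b, Fstl3 and Smad3, ranged from 69.2% (Smad3) to 82.0% (Acvr2a).

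Levels are given as TPM, a share of all the transcripts in a library, which is scaled for transcript length and can be compared between genes. The libraries were each quantified in a first way, in gene and transcript tables with the layout of RSEM (the first tables), and in a second way, per transcript with the layout of kallisto (the second tables), and values are from the first gene tables unless the second are named. Smad3 and Mstn had the highest levels of the 10 genes, and Fstl3 and Inhba the lowest. The sum over all 10 was 90.4 TPM in replicate 1 against 75.2 TPM in replicate 2, and 8 of them, all but Fstl3 and Inhba, reached 1 TPM in both libraries.

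Among the ligands, Mstn, on chromosome 1 (53061640 to 53068079, mm10), was at 26.3 TPM in replicate 1 against 17.2 TPM in replicate 2, a mean of 21.7 ± 6.46 TPM (SD, n = 2). It exceeded 88.3% and 82.7% of the nuclear protein-coding genes with a value above 0 in those libraries. Gdf11, on chromosome 10 (128882295 to 128891718), encodes a ligand that patterns the axial skeleton in the embryo, and it was at 2.05 TPM in replicate 1 against 1.20 TPM in replicate 2 (1.63 ± 0.601 TPM). Mstn was thus 12.8 times (replicate 1) and 14.3 times (replicate 2) the level of Gdf11. Both genes were lower in replicate 2, and their ratio to each other moved less than either level. Inhba, on chromosome 13 (16011851 to 16031621), encodes the activin A chain and was at 0.36 TPM in replicate 1 against 0.20 TPM in replicate 2, from 45 and 35 reads. Mstn stood 73.0 and 85.8 times above it.

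Receptor genes lay in a narrow band below Mstn. Acvr2a on chromosome 2 (48814109 to 48903269) was at 11.9 TPM in replicate 1 against 9.23 TPM in replicate 2 (10.6 ± 1.89 TPM). Acvr2b, the type II receptor with the higher affinity for myostatin, lies on chromosome 9 (119402118 to 119434995) and was at 8.07 and 7.01 TPM (7.54 ± 0.750 TPM). Acvr2a exceeded Acvr2b by 1.47 times in replicate 1 and 1.32 times in replicate 2. In the second tables this ratio was 1.18 and 1.17, so that its size, though not its direction, depended on the kind of table. Acvr1b (ALK4), the type I receptor on chromosome 15 (101174067 to 101213684), was at 10.5 and 11.3 TPM (10.9 ± 0.530 TPM), with replicate 2 the higher.

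The antagonists were scarce. Fst on chromosome 13 (114452290 to 114458951) was at 1.86 TPM in replicate 1 against 1.49 TPM in replicate 2 (1.68 ± 0.262 TPM), from 98 and 90 reads. Fstl3 on chromosome 10 (79777272 to 79782630) was at 0.40 and 0.41 TPM, from 21 and 24 reads. Mstn exceeded Fst by 14.1 times in replicate 1 and 11.5 times in replicate 2.

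Of the effectors, Smad3 on chromosome 9 (63646767 to 63757994) was at 24.2 TPM in replicate 1 against 22.3 TPM in replicate 2 (23.2 ± 1.36 TPM), and Smad2 on chromosome 18 (76241580 to 76310963) at 4.75 and 4.90 TPM (4.83 ± 0.106 TPM). Smad3 exceeded Smad2 by 5.09 times in replicate 1 and 4.54 times in replicate 2, and by 3.62 and 3.58 times in the second tables. The levels of the 2 genes did not overlap between the libraries.

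**Figure D1:**
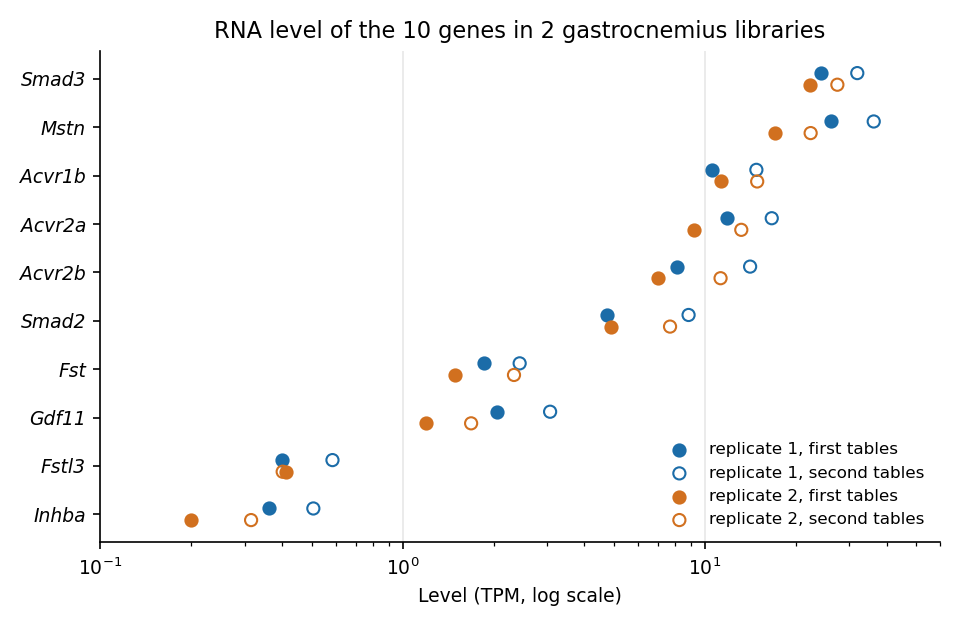
Level of each gene in TPM (x axis, log scale) in replicate 1 (blue) and replicate 2 (orange), with filled points for the first tables and open points for the second. Mstn and Smad3 lie highest in each library and table, between 17.2 and 36.3 TPM, and Inhba and Fstl3 lowest, at 0.586 TPM or less.

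Ordered by mean level, the genes ran Smad3, Mstn, Acvr1b, Acvr2a, Acvr2b, Smad2, Fst, Gdf11, Fstl3 and Inhba. The libraries' ranges overlapped between 3 neighbouring pairs, Smad3 and Mstn, Acvr1b and Acvr2a, and Fst and Gdf11, and each of these pairs swapped places between the libraries. Mstn ranked first in replicate 1 and Smad3 in replicate 2. In the second tables levels were higher for nearly every member, with Mstn at 36.3 and 22.4 TPM and Smad3 at 32.0 and 27.5 TPM. The second tables gave a median of 1.51 times (replicate 1) and 1.43 times (replicate 2) the level of the first over nuclear protein-coding genes, and the members lay between 0.978 (Fstl3 in replicate 2) and 1.86 times (Smad2 in replicate 1).

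The difference between the libraries was examined gene by gene on expected counts. Because there is 1 library on each side, the test, an exact two-sided conditional binomial test on counts scaled by TMM, compares these libraries alone, and it covers counting error only and has no replicate check. It was run on 14827 genes, those whose reads summed to 20 or more, all 10 members among them, with Benjamini-Hochberg adjustment over all of them. Ratios are log2 of replicate 2 over replicate 1 (0.5 added to each count), so negative values mean more RNA in replicate 1, and each interval is an exact 95% Clopper-Pearson interval. Of all genes tested, 26.2% passed an adjusted p of 0.05, 11.9% as higher in replicate 1 and 14.3% as higher in replicate 2. With TMM 54.6% of all calls were higher in replicate 2, against 69.4% with scaling to the ERCC total and 46.1% with scaling to the total count.

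Of the 10 genes 4 passed, and 3 of these, Mstn, Gdf11 and Acvr2a, were higher in replicate 1. Mstn had 2352 reads in replicate 1 and 1537 in replicate 2. Its log2 ratio was -0.57 (interval -0.66 to -0.47), 1.48-fold more in replicate 1 (adjusted p = 2.93e-32, exact conditional binomial test). The call depends on depth, since 44.6% of the 2616 genes within 2-fold of the summed count of Mstn passed as well. A larger fold than that of Mstn was less common, at 3.94% of those genes. The same measure in the second tables was -0.57.

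Gdf11 had 279 reads in replicate 1 and 163 in replicate 2. Its log2 ratio of -0.73 (-1.02 to -0.45) was 1.66-fold more in replicate 1 (adjusted p = 1.98e-06, same test). It was the one member with a fold of at least 1.5, which 12.6% of all genes tested reached, and the one that met that fold and the adjusted p together, as 6.96% of all genes did, 2.81% as higher in replicate 1 and 4.15% as higher in replicate 2. Among 3795 genes within 2-fold of its summed count, 4.30% had a larger fold. Acvr2a, with 2284 and 1774 reads, had -0.32 (-0.41 to -0.23), 1.25-fold more in replicate 1 (adjusted p = 4.10e-11, same test), and 12.8% of the genes of like depth had a larger fold.

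Acvr1b differed the other way. It had 1564 reads in replicate 1 and 1676 in replicate 2, a log2 ratio of 0.15 (0.05 to 0.25) and an adjusted p of 0.0191 in the same exact test. That call was lost when libraries were scaled by total count (0.11, adjusted p = 0.0817).

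The other 6 genes did not pass. Smad3, with 3295 and 3255 reads, had a log2 ratio of 0.03 (-0.04 to 0.10), and Smad2, with 588 and 589 reads, had 0.05 (-0.12 to 0.22). The sign for Smad3 turned with scaling by total count (-0.0025). Acvr2b, with 720 and 647 reads, had -0.11 (-0.26 to 0.05). The intervals of the low genes were wide, -0.51 to 0.35 for Fst, -1.0 to 0.35 for Inhba and -0.67 to 1.16 for Fstl3. For Inhba the interval includes the value of Gdf11, so a difference of that size lies within the counting error. Fstl3 was at 0.23 in the first tables and -0.20 in the second. The median over the 10 members was -0.09, against -0.0010 over all genes tested.

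**Figure D2:**
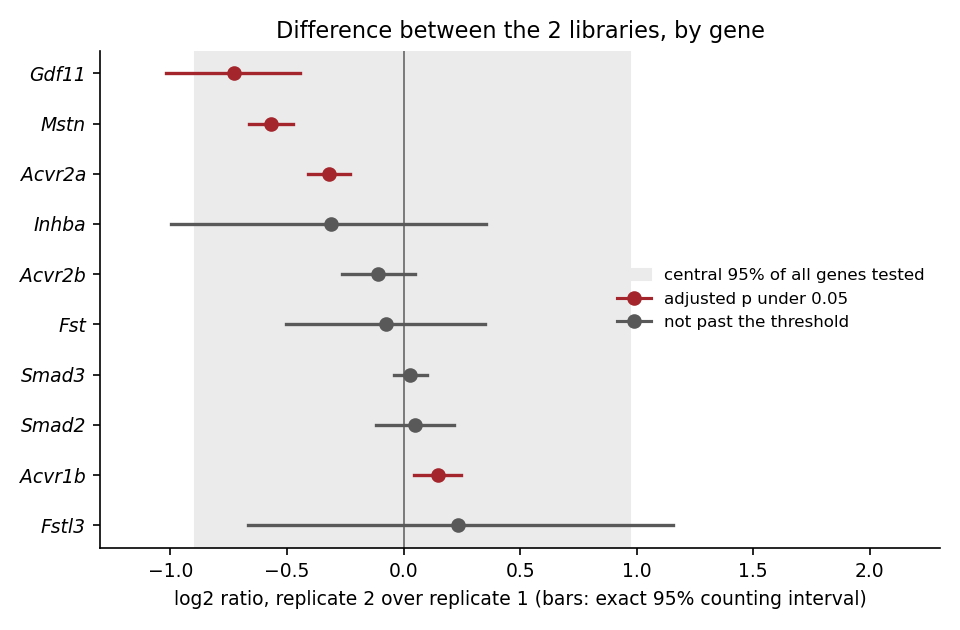
Log2 ratio of replicate 2 over replicate 1 for each gene (x axis), with exact 95% counting intervals as bars and genes at an adjusted p under 0.05 in red. The grey band is the central 95% of all 14827 genes tested, from -0.89 to 0.97, and every member's value lies inside it.

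Fibre and cell type markers moved between the same libraries. Markers counted here as higher, lower or called passed the adjusted p of 0.05, as 26.2% of all genes tested did. Such calls depend on depth, as given for Mstn. Of 15 fast-fibre markers 13 were higher in replicate 1, where the list summed to 93071 TPM against 73561 TPM in replicate 2. The other 2, the myosin genes Myh1 (log2 ratio 0.94) and Myh2 (1.02), named after their values were seen, were higher in replicate 2 and were the only ones of this list past a fold of 1.5. All 14 slow-fibre markers tested were higher in replicate 2, with sums of 1832 and 4315 TPM. Of 15 fibro-adipogenic markers 12 were higher in replicate 1 and 1 was lower there, and they summed to 610 and 429 TPM. Of 11 tendon markers tested 10 were higher in replicate 2, with sums of 62.6 and 103 TPM. Satellite cell markers (60.1 and 57.6 TPM in sum, 1 of 10 called), macrophage markers (32.0 and 26.6 TPM, 2 of 12 called) and endothelial markers (208 and 222 TPM, 8 of 14 called) were also present. None of the defining markers fixed for these types, such as Pdgfra, Scx, Pecam1, Csf1r and Pax7, was at 0 in either library. The part of these shifts in the differences of Mstn, Gdf11, Acvr2a and Acvr1b was not tested. In bulk tissue, fewer cells of a type and less RNA per cell cannot be told apart.

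The transcript tables divide each gene among its annotated forms. Mstn came from 1 form: Mstn-201, which codes for the full precursor of 376 codons, held 100% of the gene's TPM in both first tables, and at least 99.1% in the second. The other annotated form, Mstn-202, lacks 561 coding bases and had no expected read in the first tables. Forms under 10% of a gene's TPM throughout, Mstn-202 among them, were chosen after their values were seen. Gdf11 and Acvr1b have 1 annotated transcript each. Acvr2a-201 held 100% in the first tables, and 100% and 91.3% in the second.

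Acvr2b has 3 coding forms with 512, 528 and 536 codons, which differ by segments of 8 and 24 codons. The form with 512 codons, Acvr2b-205, led in each library and table, with 75.7% and 78.0% of TPM in the first tables and 61.0% and 65.2% in the second. The full form, Acvr2b-202, held 2.48% and 7.56% in the first tables but 17.0% and 18.9% in the second, and the retained-intron model Acvr2b-206 between 8.99% and 13.8%. The leading form was therefore the same in both kinds of table, while the share of the full form was not.

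Follistatin is made in a longer form with an acidic tail, which circulates, and a shorter form that binds heparan sulphate at cell surfaces. The 81 coding bases of Fst-205 (343 codons) that Fst-202 (317 codons) lacks are shown because they encode that tail. They lie on the minus strand at chr13:114453426-114454280 of mm10, joined across an intron, and capitals mark the 12 of 27 codons that encode glutamate or aspartate.
Fst: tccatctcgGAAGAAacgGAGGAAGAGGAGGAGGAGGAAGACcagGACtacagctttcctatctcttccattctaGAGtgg
Longer forms (Fst-201 and Fst-205 together) held 36.2% of Fst TPM in replicate 1 and 48.3% in replicate 2 of the first tables, and 59.4% and 53.0% of the second. The shorter form, Fst-202, held 35.1% and 45.0% in the first and 38.0% and 39.3% in the second. Retained-intron models held 28.1% in replicate 1 and 6.71% in replicate 2 of the first tables, of which Fst-203 made 25.9% and 6.71%. All of these rest on 98 and 90 reads. By TPM the longer forms lay above the shorter in each library and table. By reads the order was opposite, with 61.1 and 62.8 expected reads on Fst-202 against 23.5 and 25.2 on the longer forms, which have the shorter annotated transcripts.

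Smad2 messages mostly code for the full protein. Smad2-201 and Smad2-205 share the same 467 codons and together held 73.5% and 73.1% of Smad2 TPM in the first tables and 54.6% and 61.2% in the second. Their reads were 537 of 588 in replicate 1 and 553 of 589 in replicate 2. A form without one 90-base coding exon, Smad2-202, named after its values were seen, held 8.21% and 1.43% in the first tables and 7.82% and 9.65% in the second. The protein it encodes, unlike full-length SMAD2, can bind DNA directly. Smad2-206, an incomplete model without a stop codon, held 10.7% and 16.9% in the first tables and 31.6% and 29.2% in the second, on at most 49.7 estimated reads.

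Smad3-201, the full-length form of 425 codons, held 77.8% and 84.0% of Smad3 TPM in the first tables and 87.0% and 94.9% in the second. The rest went to a short incomplete model that differed by table, Smad3-204 in the first (21.8% and 15.1%) and Smad3-205 in the second (13.0% and 5.15%). Of the 3295 expected reads in replicate 1, 3228 were assigned to Smad3-201, so the short models weigh on TPM far more than on reads.

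For Inhba and Fstl3 the split between forms rested on few reads. Inhba-201 and Inhba-202 have the same coding part of 424 codons, and Inhba-201 held 44.4% of TPM in replicate 1 and 75% in replicate 2. Fstl3-201, the coding form, held 15.0% and 63.4%, and the noncoding Fstl3-202 85.0% and 36.6%. In the second tables Fstl3-201 held 44.6% and 100%.

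**Figure D3:**
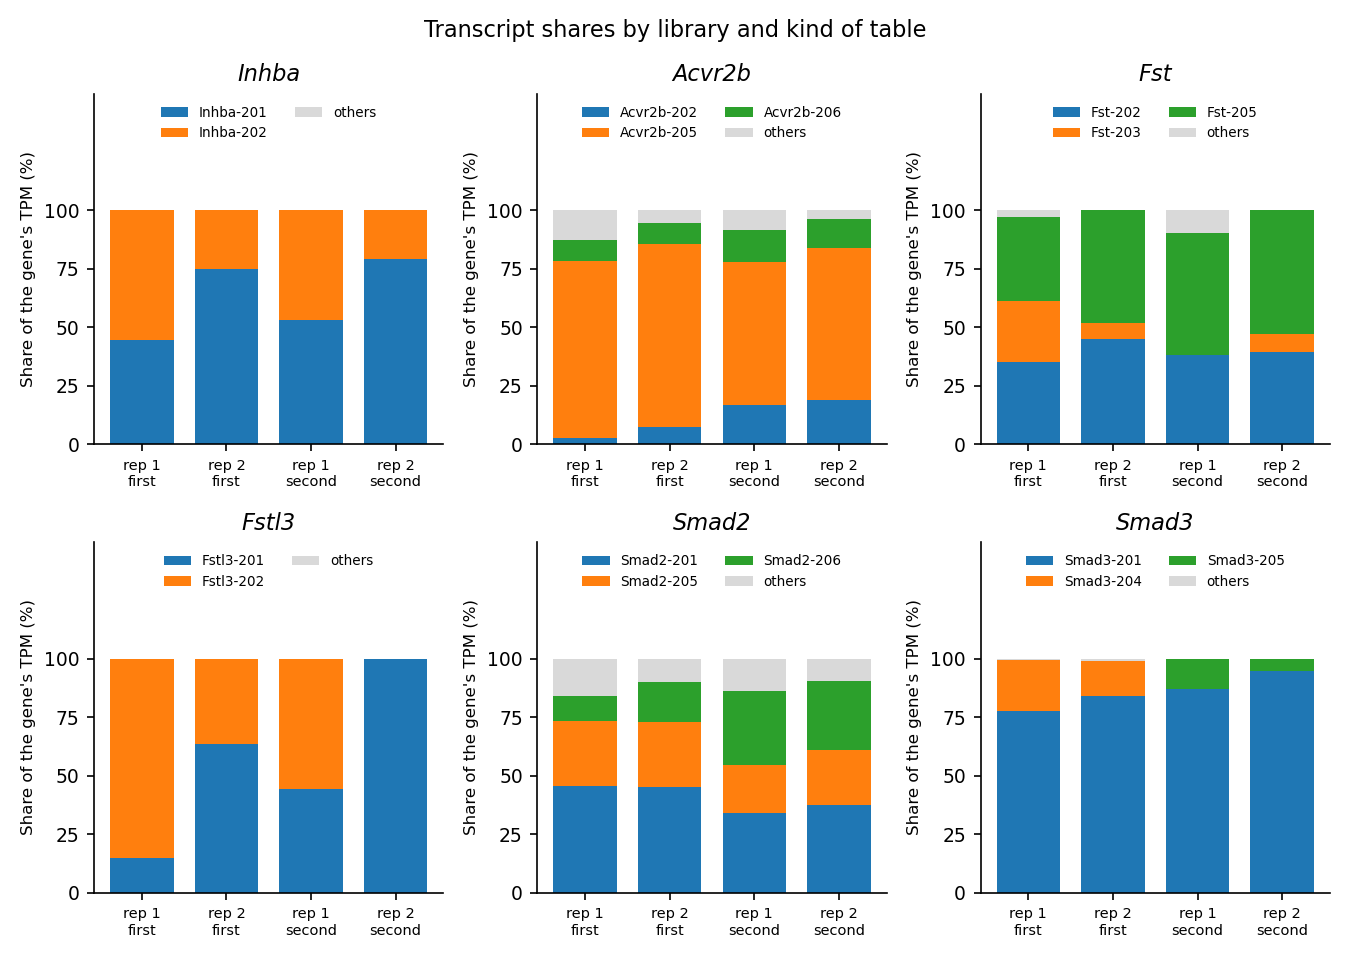
Share of each gene's TPM (y axis, percent) held by its transcripts in replicates 1 and 2 of the first and second tables, with forms that never reach 10% in grey. Acvr2b-205, Smad3-201 and the 2 full-length Smad2 forms hold most of their genes in all 4 columns, while the shares within Inhba, Fst and Fstl3 move between columns.

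Some of the 10 genes share ground with other genes. Orc4 lies on the opposite strand of Acvr2a and shares 446 exonic bases with it, and had 472 and 433 reads. Prss57 shares 1157 exonic bases with Fstl3 on the opposite strand and had 1 read in replicate 1 and 0 in replicate 2. Gm47040 shares 115 bases with Fst, also on the opposite strand, and had 0 reads in both libraries. B230303A05Rik and Gm48444, which span exons of Inhba from the opposite strand, had 0 reads. The sources used here do not give whether strand was used in counting. With a posterior SD of 0 for Acvr2a in both libraries, the first tables scored no Acvr2a read as uncertain. The second tables have no such score. There the estimated counts of Acvr2a summed to whole numbers, 2521 in replicate 1 and 1922 in replicate 2, and so show no read split with another gene. Whether reads in the shared bases went to the right gene was not tested.

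By distance in log2(TPM + 1) over the 2 libraries, the protein-coding genes nearest to Mstn were Spns2 (25.5 and 17.4 TPM), Anxa7 (26.2 and 18.2 TPM), Chordc1 (23.7 and 16.7 TPM), Grk2 (24.0 and 18.2 TPM) and Nos1 (25.3 and 19.3 TPM). Their distances ran from 0.045 for Spns2 to 0.17 for Nos1, and with 2 libraries this likeness is a description of 2 values.

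The rest of the pathway was read from 6 lists with 90 genes, of which 71 were tested. Of these, 13 passed with more RNA in replicate 1 and 13 with more in replicate 2, and the median log2 ratio was 0.0011. Together they held 26 calls among 71 genes, or 36.6%, where 26.2% of all genes tested were called. The calls thus fell evenly on both sides.

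Among the other ligands (7 of 12 tested, 2 of them higher in replicate 2, median 0.08), the transforming growth factor beta genes led. The share of these ligands called was 28.6%, near the 26.2% of all genes tested. Tgfb3 was at 12.6 TPM in replicate 1 against 13.7 TPM in replicate 2, with a log2 ratio of 0.17 (adjusted p = 0.00836, exact test). Tgfb2 was at 2.54 and 3.46 TPM and Tgfb1 at 1.80 and 1.82 TPM, and neither passed. Mstn was thus the most abundant ligand gene of these lists in both libraries, with Tgfb3 next. Gdf1, which shares its locus with Cers1, had 17.4 and 40.4 reads in the first tables (log2 ratio 1.26, adjusted p = 0.0103, exact test) and was listed at 0 in both second tables, where Cers1 had 825 and 587 reads. The posterior SD of the Gdf1 count was 17.17 in replicate 1 and 18.05 in replicate 2. The exact test leaves out this uncertainty, so the Gdf1 call is not secure.

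Of the 12 other receptors 10 were tested, and their median log2 ratio was -0.03. Calls fell on 2 of them, or 20%, against 26.2% of all genes tested. Both had more RNA in replicate 1, as did 11.9% of all genes tested, while 14.3% passed the other way. Tgfbr1 (ALK5), the alternative type I receptor for myostatin, was at 12.6 TPM in replicate 1 against 9.23 TPM in replicate 2, with a log2 ratio of -0.43 (-0.53 to -0.33, adjusted p = 1.17e-16, exact test). Acvr1b stood at 0.836 times the level of Tgfbr1 in replicate 1 and 1.22 times in replicate 2, so the order of these 2 type I receptors was opposite in the libraries. The BMP receptors Bmpr1a (19.4 and 17.5 TPM) and Bmpr2 (18.8 and 17.5 TPM) were the most abundant and did not pass. Acvr1c (ALK7), a further type I receptor named after its values were seen, had 6 and 8 reads.

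Binding proteins and proteases (15 of 19 tested) had a median of -0.15, with 3 higher in replicate 1 and 1 in replicate 2. The share called was thus 26.7%, near the 26.2% of all genes tested. Tcap (telethonin), a sarcomeric protein that also binds myostatin, led with 1202 TPM in replicate 1 and 1668 TPM in replicate 2, a log2 ratio of 0.52 (adjusted p below the smallest value the computation holds, listed as 0). Decorin (Dcn), a matrix proteoglycan that can trap myostatin, was at 106 and 87.4 TPM (-0.25, adjusted p = 4.76e-18, exact test), and it is also one of the fibro-adipogenic markers. Furin, the convertase that cuts the precursors, was at 19.2 and 18.4 TPM and did not pass. Pcsk6, a convertase of the same family, was at 6.94 and 4.47 TPM and 1.5-fold or more higher in replicate 1 (-0.71, -0.87 to -0.55, adjusted p = 3.08e-17, exact test). Genes with a known bearing on myostatin that were named after their values were seen include Wfikkn2, whose product binds the propeptide and the mature ligand, at 3.25 and 3.19 TPM, and the protease genes that release the latent ligand, Bmp1 at 3.70 and 3.08 TPM and Tll2 at 0.04 and 0.02 TPM. Wfikkn2 was 1.75 times (replicate 1) and 2.14 times (replicate 2) the level of Fst.

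SMAD genes and their regulators (17 of 18 tested) had a median of -0.07, with 4 higher in replicate 1 and 1 in replicate 2. The share called was thus 29.4%, near the 26.2% of all genes tested. Smad4, the shared partner of the activated SMADs, was at 29.0 TPM in replicate 1 against 25.2 TPM in replicate 2 (log2 ratio -0.12, adjusted p = 0.0117, exact test). Smad3 stood at 0.835 and 0.885 times the level of Smad4, and Smad2 at 0.164 and 0.195 times. Ppm1a, a phosphatase that acts on SMAD2 and SMAD3, was at 116 and 110.3 TPM and did not pass, and Zfyve9 (SARA), which brings SMAD2 and SMAD3 to the receptor, was at 23.9 and 20.3 TPM (-0.19, adjusted p = 1.66e-08, exact test).

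In the BMP arm, which signals through other SMADs, 2 of 11 genes tested were higher in replicate 1 and 3 in the other library. Of those tested, 45.5% were thus called, against 26.2% of all genes tested, and their median was 0.21. Bmper, a secreted BMP regulator, was higher in replicate 1 at 1.55 against 0.85 TPM (-0.64, adjusted p = 0.00186, exact test). Id1, a target of BMP signalling, was higher in replicate 2 at 5.58 against 2.64 TPM (1.11, 0.72 to 1.53, adjusted p = 1.00e-07, exact test), and Id3 at 5.60 against 4.44 TPM (0.47). Bmp6 was at 4.44 TPM in replicate 1 against 5.67 TPM in replicate 2 (0.27, adjusted p = 0.00879, exact test).

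Genes induced by SMAD2 or SMAD3 in other cells were split. Of 16 tested, 6 were higher in replicate 2 and 3 were lower there. Thus 56.25% of these genes were called, against 26.2% of all genes tested. Their median was 0.33 against -0.0010 over all genes tested. Higher in replicate 2 were, among others, Postn (1.32 and 2.60 TPM, log2 ratio 1.02), Thbs1 (2.41 and 4.44 TPM, 0.93), Col1a1 (60.6 and 88.0 TPM, 0.59) and Col1a2 (49.7 and 72.4 TPM, 0.53). Fbn1 was higher in replicate 1 (13.0 and 7.09 TPM, -0.81), and Cdkn1a, a brake on the cell cycle, did not pass (12.8 and 11.6 TPM). Many of these encode matrix proteins, Col1a1 and Fbn1 are also among the fibro-adipogenic markers, and tendon markers were higher in replicate 2 as given above. Their part in these differences was not tested.

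**Figure D4:**
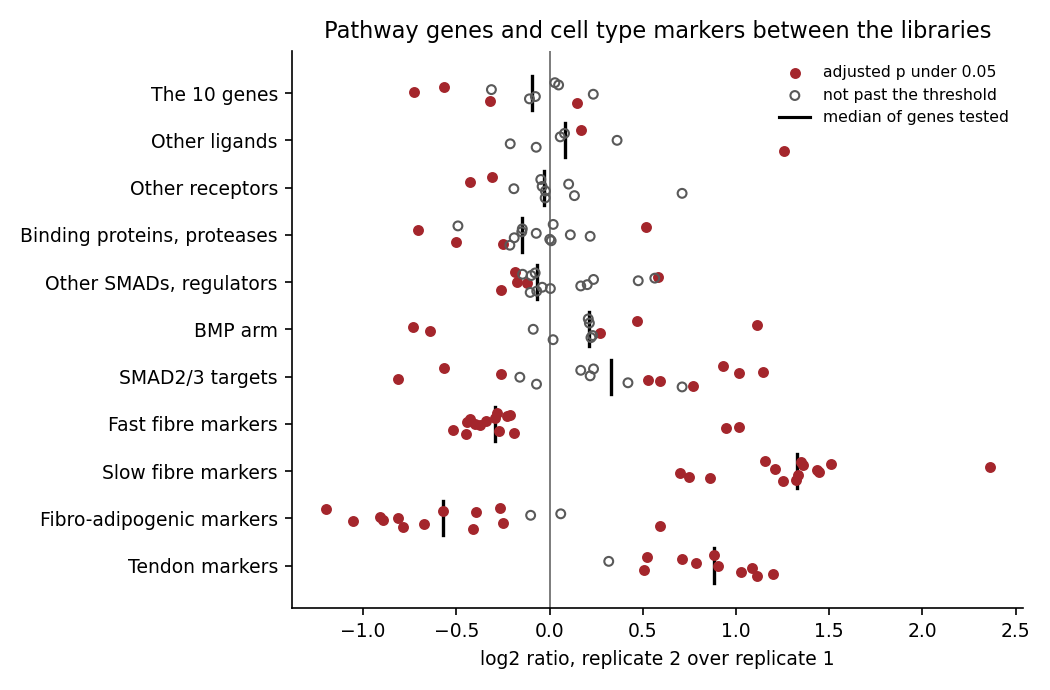
Log2 ratio of replicate 2 over replicate 1 (x axis) for the genes tested in each list, one point per gene, red where the adjusted p is under 0.05, with black bars at the median. The 10 genes centre near 0 with Gdf11, Mstn and Acvr2a to the left, the slow-fibre and tendon markers lie wholly to the right, and the fast-fibre and fibro-adipogenic markers lie mostly to the left.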

How the data were processed

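Gastrocnemius total RNA of 2 libraries was analysed from the deposited tables. Per the file headers, the authors' first tables hold expected counts (estimated reads per gene or transcript), TPM, and, as scores, the posterior mean TPM and the posterior SD of the count, while each transcript of the second has an estimated count and a TPM. The notes deposited with each sample derive the first from reads aligned to the transcriptome and the second from a file of reads, with mm10 and GENCODE M21. The sources used here name no program or version. The mm10 genome is of the B6 strain, and no table separates CAST alleles.

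Symbols and coordinates came from GENCODE M21, which matched all 55536 gene identifiers. Rows that name no gene, spike-ins included, held 0.468% and 0.442% of counts and stayed out of the test. For the test, expected counts were rounded and scaled by TMM (edgeR 4.0.16, R 4.3.3), with size factors of DESeq2 1.42.0 as an alternative, and tested in scipy 1.17.1. The test was checked on simulated counts that carried counting error alone, so the check does not cover other differences between libraries. All 10 members are named, with the 3 most abundant genes of each list and up to 4 that passed the adjusted p and a fold of 1.5, and transcripts with at least 10% of a gene's TPM. Some items that this rule names are not reported here. Members, lists and tests were chosen with earlier results of these data known. Reads are not independent molecules, and intervals reflect counting error alone.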

Additional observations from a re-analysis of the deposited data

How the results depend on the processing

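Mstn, Gdf11 and Acvr2a kept their direction and their call under each alternative tried: DESeq2 size factors, total counts, ERCC totals, the second tables, posterior mean counts, a prior count of 5, no filter, and a summed count of at least 200. A prior count does not enter the test, and in the others the count of members called was 4, except with total counts, where it was 3 because Acvr1b no longer passed (log2 ratio 0.11, adjusted p = 0.0817). With total counts 2 members had a fold of at least 1.5 in place of 1, since Mstn passed it too. Signs turned for Fstl3 in the second tables (-0.20) and for Smad3 with total counts (-0.0025), and neither was called in any setting. Inhba, Fst and Fstl3 have no value at a summed count of at least 200. Calls among the other pathway genes numbered between 26 and 29 in the 6 alternatives in which they were counted, which leave out posterior mean counts and the prior count. Scaling moved the median of all genes by at most 0.054 on the log2 scale. Levels moved by more than the SD of the libraries in all 10 members with the second tables and with TPM rescaled to nuclear protein-coding genes, and in 2 members with posterior mean TPM. Of 18 transcript shares, 12 moved by more than that SD in the second tables. Leaving out a replicate leaves the value of the other library for levels and shares, as given in the text, and no ratio. No paired analysis was possible because the series has 1 group. Depth limits Inhba, Fst and Fstl3, with 21 to 98 reads a library.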
